A study of Mus musculus with 67 samples.

Results

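Resting microglia taken directly from the brains of adult Orai1 knockout and control mice were compared, with 6 KO mice set against 6 WT mice. These were the 12 libraries, of 67 in the series, that came from vehicle-treated mice in the table of sorted cells. They were chosen by the genotype and sex codes in their library names and by the ending that marks a saline injection. Each genotype had 3 females and 3 males. WT mice were Orai1 fl/fl, and KO mice were Orai1 fl/fl Cx3CR1-cre/ERT2. In the second genotype a tamoxifen-dependent Cre is made in cells that use the Cx3cr1 promoter, which include microglia and other macrophages. Mice of both genotypes had received tamoxifen, and per the labels' protocols 30 to 35 days passed before the injection of sterile PBS at 10 to 12 weeks of age. Microglia were then purified by FACS from the whole brain, and libraries were made from 0.97 ng of total RNA with a SMARTer stranded kit. The Cre was present in KO mice alone, so loss of Orai1 and presence of the Cre allele cannot be told apart in this comparison. The hours between injection and collection are not given in the sources used here.

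Orai1 forms the pore of the calcium release-activated calcium channel. When the endoplasmic reticulum loses calcium, its sensor STIM1 gathers at contacts with the plasma membrane and opens Orai1, and the calcium that enters activates calcineurin and NFAT transcription factors. Microglia are the resident macrophages of the brain, and at rest they survey the tissue through moving processes and respond to injury and nucleotides with calcium signals. The comparison at rest addresses whether loss of the channel changes the RNA of microglia that have not been stimulated.

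The deposited table gives counts in 45707 rows without a name or identifier for any of them. Genes are therefore referred to by the number of their row from the top, and no gene name was inferred from that place. For the same reason the level of Orai1 is not known here and gives no check of the genotypes, and the purity of the sort could not be checked against marker genes. No sequence can be given for any row. A list kept with the counts names 12 different mice for the 12 libraries. The same list describes the preparation as cultured cells, and the sample labels, which say sorted cells, were followed.

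Total counts ran from 4989974 to 7490132 per library, with a median of 6520701. KO and WT did not differ detectably in total counts (6492308 ± 326336 against 6320161 ± 948634, SD, n = 6 each, exact permutation test within sex, two-sided, p = 0.69), where 0.005 is the smallest p the design allows. Rows with at least 1 count numbered 17437 to 20615 per library, and the 10 most abundant rows took 13.1% to 19.2% of the counts. The exact permutation test gave p = 0.67 for the number of detected rows and p = 0.56 for the share of the top 10, and all 3 p-values were 0.69 after Benjamini-Hochberg adjustment. Rank correlations of log2 CPM between libraries had a median of 0.9502 both in the 30 pairs of the same genotype and in the 36 pairs of a KO with a WT library. The rows with the largest male and female excess were chosen by the labelled sex, so their levels are a description. Row 19565 stood at 85.9 to 117 CPM in the 6 males and at 0 to 0.541 CPM in the 6 females, and row 28290 at 1610 to 2750 CPM in females and at 0 to 2.33 CPM in males. CPM are counts scaled to library size with TMM factors, which adjust for differences in composition.

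One library stood apart. On the first principal component of log2 CPM, which held 17.5% of the variance, KO male replicate 3 had a score of 97.78, whereas the other 11 libraries lay between -17.96 and 13.95. It was the highest of the 12 libraries in 2080 of 14077 rows (14.8%) and the lowest in 1781 rows (12.7%). WT male replicate 2 was the highest in 12% of rows and the lowest in 13.4%, the largest share of lowest values among the 12. Results that rest on KO male replicate 3 are given with and without it, except where stated.

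Only 3 of 14077 rows tested separated KO from WT microglia at rest by edgeR's quasi-likelihood test with sex as a factor, at a Benjamini-Hochberg adjusted p under 0.05 (called, in what follows). That is 0.0213% of the rows tested. Rows 1 and 43535 were higher in KO (0.0142%) and row 15292 was lower (0.0071%). Without adjustment, 615 rows (4.37%) had a p under 0.05. All 3 were also called by DESeq2, which called 14 rows, by voom, which called 4, and in each of the 12 fits that left out 1 mouse. In those 12 fits the adjusted p (edgeR) reached 0.0497 for row 43535 and 0.0278 for row 15292.

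Row 1 was present in KO cells and nearly absent from WT cells. In the 6 KO mice it stood at 198, 237 and 248 CPM (lowest, median and highest), from 1235 to 1642 counts per library. In the 6 WT mice it gave 1 count in total, in WT female replicate 3, and no fold change is stated against that level. KO females averaged 232 ± 7.94 CPM and KO males 229 ± 27.6 CPM (SD, n = 3 each), so the level was similar in both sexes. The mean over the KO mice was 231 ± 18.2 CPM (SD, n = 6).

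Row 43535 was about 6-fold higher in KO mice. Its level was 10.5, 16.5 and 31.1 CPM (lowest, median and highest) in KO, against 1.32, 2.89 and 4.60 CPM in WT. The lowest KO mouse was above the highest WT mouse, and within KO the 3 females averaged 23.6 ± 8.06 CPM and the 3 males 13.3 ± 4.01 CPM (SD). The fitted difference was 2.62 ± 0.31 on the log2 scale (SE, adjusted p = 0.00952, edgeR), a fold of 6.14 with a 95% interval from 3.86 to 9.76. The row is not abundant, with 721 counts over the KO libraries and 113 over the WT libraries. It kept its direction within each run of library numbers, at 2.36 in the lower and 2.90 in the higher run, without a call in either (adjusted p = 0.575 and 0.795).

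Row 15292 was lower in KO, and it was among the most counted rows of these cells. It stood at 3950, 4150 and 4450 CPM in WT mice (lowest, median and highest) and at 1680, 2320 and 2630 CPM in KO mice. The groups did not overlap, and the lowest KO value belonged to KO male replicate 3. The fitted difference was -0.89 ± 0.10 on the log2 scale (SE, adjusted p = 0.00417), which puts KO at 53.8% of the WT level with a 95% interval from 46.6% to 62.2%. By CPM, which is not per length, it ranked 18 among the rows tested. Females and males gave the same picture, at 2250 ± 180 against 4070 ± 190 CPM and at 2240 ± 496 against 4280 ± 240 CPM (SD, n = 3 each). The difference between the sexes was -0.08 ± 0.20 (adjusted p = 0.997).

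The call of row 15292 depended on which mice supplied the estimate of spread. With the spread taken from the 12 resting mice its SE was 0.10, and it was called. With the spread pooled over all 33 sorted libraries, including those after LPS, the difference was again -0.89 but the SE was 0.20 and the adjusted p was 0.326. In the 3 WT and 3 KO mice sampled 6 h after LPS, the row stood at 2470 ± 1490 and 1390 ± 786 CPM (SD), a wider spread than at rest. Within the lower and the higher run of library numbers the difference was -0.80 and -1.0 (adjusted p = 0.124 and 0.158), with 3 mice of each genotype in a run.

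**Figure D1:**
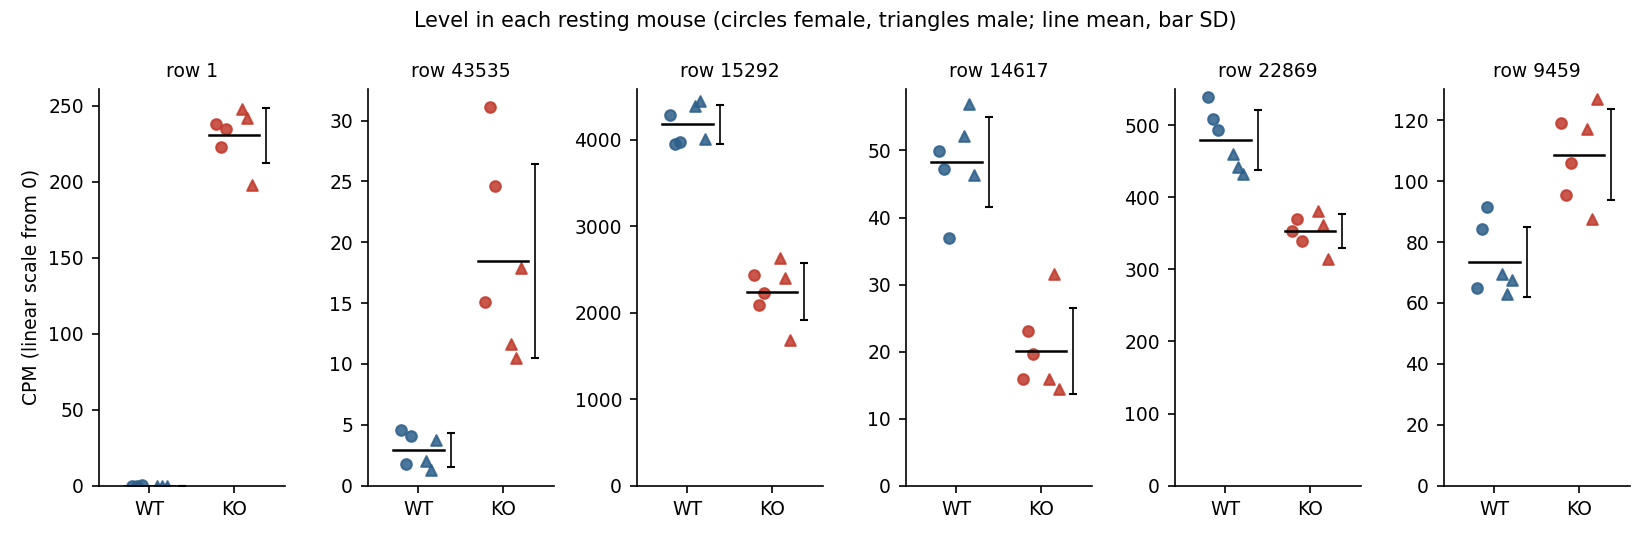
CPM in each of the 12 resting mice for 6 rows, on linear axes from 0, with females as circles, males as triangles, the mean as a line and the SD as a bar. KO and WT do not overlap in rows 1, 43535, 15292, 14617 and 22869, whereas in row 9459 the lowest KO mouse (87.7 CPM) lies below the highest WT mouse (91.4 CPM). The rows were chosen by results in these mice, so lack of overlap is a description.

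In the 3 rows next in order of p, rows 14617, 22869 and 5929, the adjusted p missed the threshold that 0.0213% of all rows passed. KO and WT mice did not overlap in these 3 rows. Rows picked for a low p in these mice tend to lack overlap, so this is a description and adds no support. The same holds for rows 1, 43535 and 15292. How many of all rows tested lack overlap was not counted. Row 14617 stood at 14.4, 17.8 and 31.5 CPM in KO (lowest, median and highest) and at 37, 48.6 and 57 CPM in WT. Its difference was -1.26 ± 0.19 (SE, adjusted p = 0.0638), which puts KO at 41.7% of WT with a 95% interval from 31.5% to 55.2%. It was called by DESeq2 (adjusted p = 7.8e-07), by voom (0.0245), in the fit of all 33 sorted libraries (0.00063) and without KO male replicate 2 (0.0122), the KO mouse with the highest level of the row.

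Rows 22869 and 5929 were chosen after their values were seen. Row 22869 stood at 315, 357 and 381 CPM in KO and at 432, 477 and 539 CPM in WT, and its difference of -0.44 ± 0.07 (adjusted p = 0.0827) had a narrow 95% interval, from -0.58 to -0.29. Row 5929 stood at 3.40, 5.68 and 7.36 CPM in KO and at 9.46, 12.6 and 15.9 CPM in WT, a difference of -1.15 ± 0.19 (adjusted p = 0.127). DESeq2 called both (adjusted p = 1.57e-06 and 0.000168).

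With all 33 sorted libraries in the fit, 4 of 15344 rows were called at rest (0.0261%), 3 higher (0.0196%) and 1 lower (0.00652%). Row 9459 was called there (0.57 ± 0.10, adjusted p = 0.0126) and was not called by edgeR with the resting mice alone (0.57 ± 0.12, adjusted p = 0.757). DESeq2 called it in the resting mice alone (adjusted p = 0.0153). It stood at 87.7, 112 and 127 CPM in KO and at 63.1, 68.5 and 91.4 CPM in WT, so the groups overlapped. Thus the 2 edgeR fits gave equal differences for rows 9459 and 15292 and opposite calls.

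**Figure D2:**
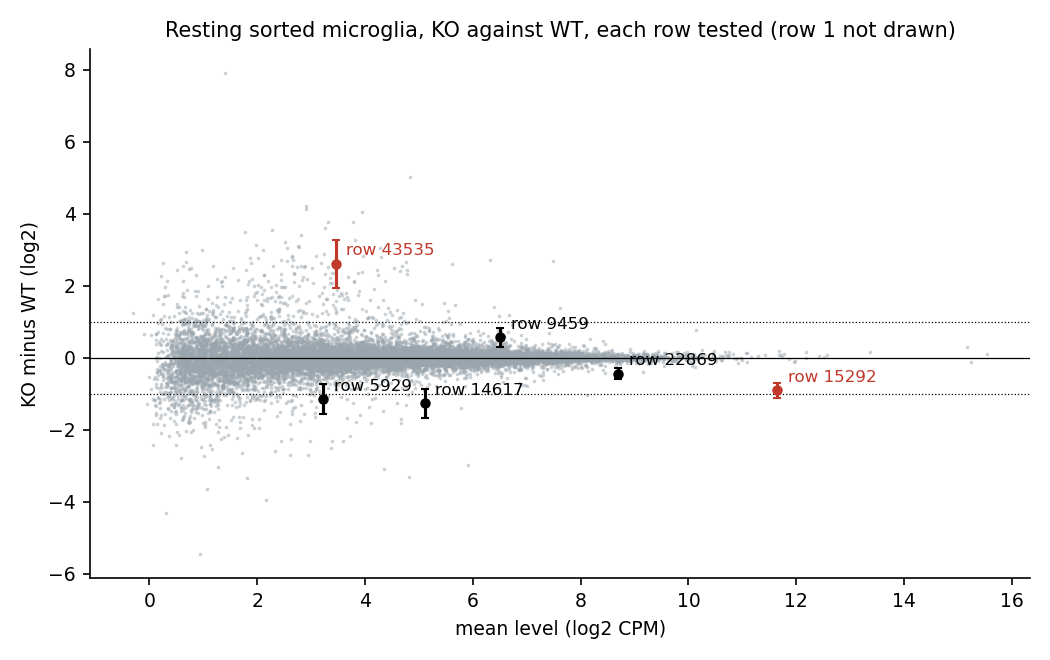
KO minus WT on the log2 scale against mean log2 CPM for the rows tested in the 12 resting mice, without row 1; the bars are 95% intervals, the dotted lines mark 2-fold, and red marks the called rows 43535 and 15292. Row 43535 lies at 2.62 and row 15292 at -0.89, and black marks 4 further rows described in the text.

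How large a change the spread between mice leaves possible was read from the 95% interval of each row's difference. The intervals cover each row singly and are not adjusted for the number of rows. The median half-width was 0.46 on the log2 scale, which is a fold of 1.38. The narrowest twentieth of the rows had half-widths up to 0.18 (a fold of 1.14), and the widest twentieth had at least 1.75 (a fold of 3.36). In 6580 rows (46.7%) the whole interval lay within 1.5-fold of no difference, and in 9709 rows (69%) it lay within 2-fold. A change of 4-fold or more lay outside the interval in 12787 rows (90.8%). With 2 one-sided tests per row and Benjamini-Hochberg adjustment, a change of 2-fold or more was rejected in 10104 rows (71.8%) and one of 1.5-fold or more in 6451 rows (45.8%).

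For the other 4368 rows (31%) a 2-fold change was left possible at this number of mice. In 1519 of them only a higher level in KO by 2-fold or more was within reach of the interval, in 1759 only a lower one, and in 1090 both. These rows were mostly rows with few counts. Between a mean log2 CPM of 0 and 2 the median half-width was 1.17 (a fold of 2.25), and 339 of 2870 rows (11.8%) had intervals within 2-fold. Between 2 and 4 it was 0.61, and 2379 of 3735 rows (63.7%) were within 2-fold. Between 4 and 6 it was 0.35, with 3996 of 4386 rows (91.1%) within 2-fold.

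Among abundant rows even modest changes lay outside the interval. Between a mean log2 CPM of 6 and 8 the median half-width was 0.24 (a fold of 1.18), and 2219 of 2488 rows (89.2%) had intervals within 1.5-fold. At 8 and above it was 0.20 (a fold of 1.15), and 564 of 594 rows (94.9%) were within 1.5-fold. Of these 594 rows, 3 had an estimated difference over 1.5-fold in either direction, and row 15292 was one of them. From a level of 6 upward, 87 of 3082 rows (2.82%) had intervals that reached 2-fold.

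**Figure D3:**
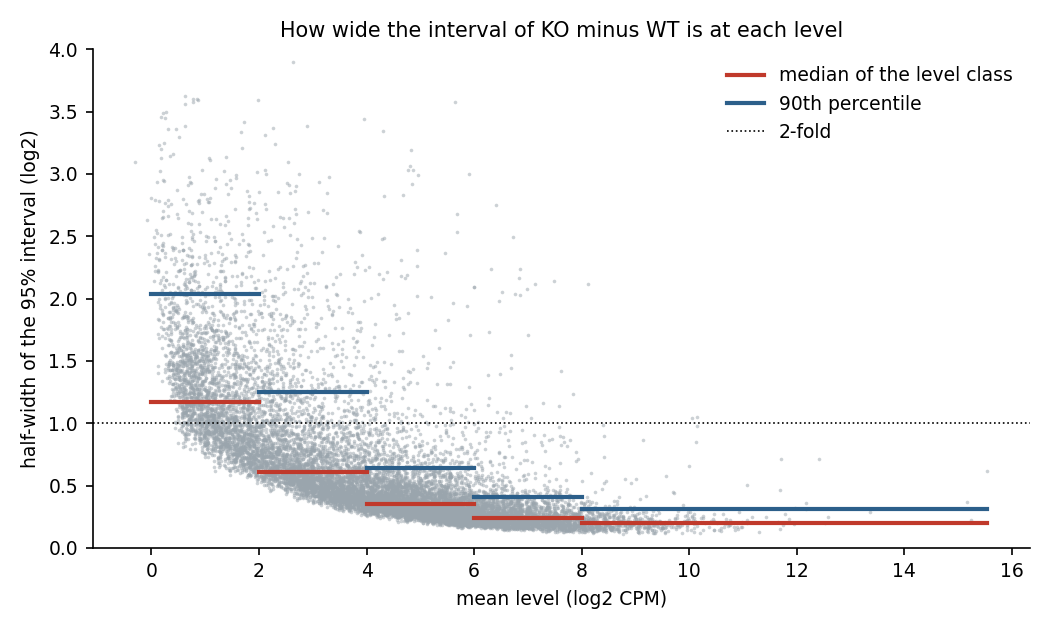
Half-width of the 95% interval of KO minus WT (log2) against mean log2 CPM, each point a row tested; red lines are the medians and blue lines the 90th percentiles of the level classes, and the dotted line marks 2-fold. The median falls from 1.17 at log2 CPM 0 to 2 to 0.20 at 8 and above.

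Many of the large upward estimates rested on 1 mouse. Among the 11203 rows whose mean log2 CPM reached 2, the estimate exceeded 2-fold upward in KO in 201 and downward in 77, of which 2 and 0 were called. In 155 of the 201 (77.1%), KO male replicate 3 was the highest of the 12 libraries. Without that mouse the estimate exceeded 2-fold upward in 65 rows and downward in 86, and of the 201 rows 64 were still more than 2-fold higher. Of the 77 downward rows, KO male replicate 3 was the lowest library in 18 (23.4%), and 60 were still over 2-fold lower without it. Leaving out any other single mouse left 204 to 252 rows more than 2-fold higher. Which genes were high in this mouse, and whether they mark other cells, was not tested, since the rows carry no names.

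Row 1805 gives an example of a row that varied from mouse to mouse. It stood at 0.169 to 2.59 CPM in 5 of the 6 KO mice and at 155 CPM in KO female replicate 2, and in WT mice it ranged from 0 to 216 CPM. Its difference of -2.98 ± 1.39 (SE, adjusted p = 0.997) had a 95% interval from -5.98 to 0.03. The dispersion common to all rows corresponded to a biological coefficient of variation of 34.3% among KO mice and 30.7% among WT mice, and of 29.1% in females and 35.8% in males. The values for KO mice and for males include KO male replicate 3 and were not computed without it.

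In the library names the numbers fall into a lower and a higher run, each with 3 KO and 3 WT mice, and the labels do not say what the runs stand for. The lower run held more males and the higher run more females, so sex and run cannot be fully told apart. Per row, the median share of the variance in log2 CPM was 4.2% for genotype, 6.27% for sex and 7.79% for the run. With so few libraries a factor unrelated to the rows also takes a share, and that level was not computed. The shares were not tested against it or against each other. Neither these nor the shares of the components below show by themselves an effect of any factor. On the first principal component genotype took 17.1%, sex 15.1% and the run 2.89% of the variance, and on the second 0.681%, 46.8% and 30.3%. The first component was dominated by KO male replicate 3 (a score of 97.78), so its shares rest in large part on that mouse. These shares were not computed without it. In the same fit that called 3 rows for genotype, 8 rows were called between the sexes (0.0568%), 4 higher and 4 lower in males. With a term for the run in the model the same 3 rows were called for genotype. Between the sexes 6 rows were then called, 4 higher and 2 lower in males.

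No row was called for a difference of the genotype effect between the sexes by edgeR (0%), with 670 of 14077 rows (4.76%) at an unadjusted p under 0.05. DESeq2 called 19 rows and voom 0, and edgeR with no filter on low counts called 103. Row 9184 had the lowest p among rows whose signed effect (KO minus WT) was lower in males than in females, at -1.53 ± 0.32 and 1.24 ± 0.32 (SE). It stood at 28.8, 32.7 and 24 CPM in KO females and at 8.32, 19.3 and 8.79 CPM in WT females. In males the order was opposite, at 13, 10.6 and 8.64 CPM in KO and at 40.1, 28.1 and 25.2 CPM in WT. The male effect minus the female effect was -2.77 ± 0.46 (SE, adjusted p = 0.995), and it was called by DESeq2 (adjusted p = 0.000215), by edgeR with no filter (0.000518) and without WT female replicate 2 (0.0439). Row 9769 had the lowest p in the other direction, at 4.16 ± 0.81 (adjusted p = 0.995), with at most 3.54 CPM in any mouse. It was called by DESeq2 (adjusted p = 0.0124). Its KO females stood at 0.873 ± 0.476 and WT females at 3.11 ± 0.70 CPM, and its KO males at 3.20 ± 0.285 and WT males at 0.613 ± 0.288 CPM (SD, n = 3 each).

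The rows that separated resting KO mice were then read in mice the resting comparison had not used. After LPS at 1 mg/kg, 7 KO and 8 WT mice were sampled at 24 h, and 3 KO and 3 WT males at 6 h. Row 1 stood at 167 ± 23.2 CPM in KO mice at 24 h and at 125 ± 81.3 CPM at 6 h (SD). In WT mice it gave 7 counts in total at 24 h and 0 at 6 h. Row 43535 was higher in KO by 3.22 ± 0.30 at 24 h (SE, adjusted p = 2.76e-07, edgeR, all 33 sorted libraries), when 3 of 15344 rows (0.0196%) were called, 2 higher (0.013%) and 1 lower (0.00652%). Its effect at 24 h minus that at rest was 0.61 ± 0.43 (adjusted p = 1). Its difference of 2.25 ± 0.43 at 6 h missed the threshold (adjusted p = 0.0961). The difference of row 14617 was -1.49 ± 0.16 at 24 h (adjusted p = 5.69e-06), and 6 h after LPS it was -1.46 ± 0.25 (adjusted p = 0.0213), when 3 rows were called (0.0196%, with 0.00652% higher and 0.013% lower). Its effect at 24 h minus that at rest was -0.23 ± 0.24 (adjusted p = 1). Row 15292 had a difference of -0.88 ± 0.18 at 24 h (adjusted p = 0.137), and 6 h after LPS one of -0.83 ± 0.28 (adjusted p = 1), beside -0.89 at rest. At 24 h its 7 KO mice stood at 1540 to 1900 CPM and its 8 WT mice at 2890 to 3500 CPM, again without overlap. The share of all rows that lack overlap at 24 h was not counted, so this is a description. The change of its genotype effect from rest to 24 h was 0.01 ± 0.27, with a 95% interval from -0.54 to 0.56.

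Rows 22869, 5929 and 9459, which edgeR did not call at rest in the 12 mice though DESeq2 did, were read in the same way. Row 5929 differed by 0.40 ± 0.24 at 24 h (SE, adjusted p = 0.98), where KO mice stood at 12.1 ± 2.80 and WT mice at 9.43 ± 3.41 CPM (SD). Its effect at 24 h minus that at rest was 1.56 ± 0.36 (adjusted p = 0.546). Row 9459 differed by -0.18 ± 0.09 at 24 h (adjusted p = 0.939), and its effect at 24 h minus that at rest was -0.75 ± 0.13 (adjusted p = 0.0775). KO mice had 106 ± 14.3 CPM at rest and 103 ± 17 CPM at 24 h, while WT mice had 71.5 ± 10.9 and 114 ± 16.5 CPM (SD, scaled over the 33 libraries). Row 22869 differed by -0.14 ± 0.15 at 24 h (adjusted p = 0.996), an effect 0.30 ± 0.22 above that at rest (adjusted p = 1), and 6 h after LPS its difference was -1.18 ± 0.23 (adjusted p = 0.0961). No row was called by edgeR for a change of the genotype effect from rest to 24 h (0%), with 537 rows at an unadjusted p under 0.05, and other tools were not run for this change.

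Row 3519, which was lower in KO males 6 h after LPS by -1.56 ± 0.24 (SE, with an adjusted p of 0.00656), did not differ detectably at rest. It stood at 12.7, 17.8 and 22.1 CPM in KO (lowest, median and highest) and at 15, 18.5 and 22.7 CPM in WT. Its resting difference was -0.10 ± 0.17 (adjusted p = 0.997), and the 95% interval from -0.47 to 0.26 does not contain the value measured at 6 h. Among males alone the resting difference was 0.28 ± 0.19 (adjusted p = 0.825, fit with the interaction). In males its effect at 6 h minus that at rest was -1.84 ± 0.34 (adjusted p = 0.174). The 6 h libraries carry numbers outside both runs of the resting mice. LPS and any other difference between these sets of libraries therefore cannot be told apart.

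**Figure D4:**
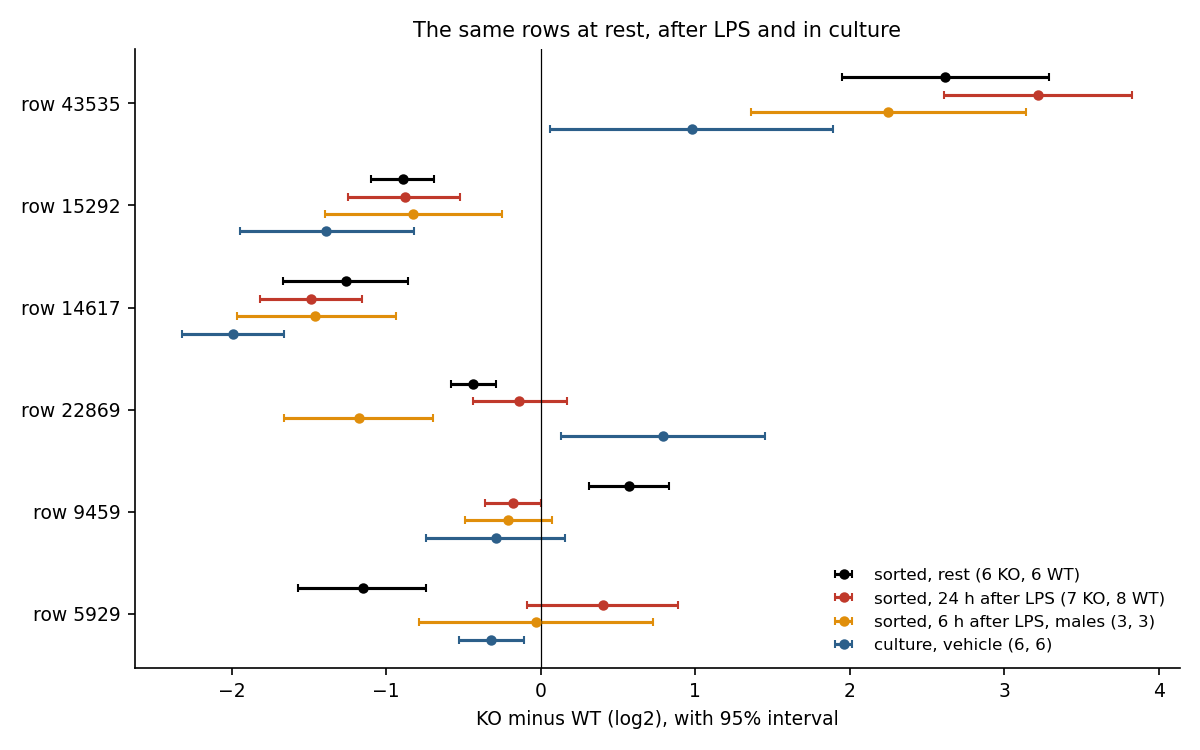
KO minus WT on the log2 scale with 95% intervals for 6 rows at rest (12-mouse fit), 24 h and 6 h after LPS (33-library fit) and in vehicle cultures. Rows 43535, 15292 and 14617 lie on the same side of 0 in all 4 settings, whereas rows 22869, 9459 and 5929 do not.

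Resting sorted cells were finally set beside unstimulated cultures that were also labelled KO and WT. These were 6 KO and 6 WT cultures grown from the hippocampus of newborn mice. Between them 8593 of 15979 rows were called (53.8%, with 30.1% higher and 23.7% lower in KO). Cultures and sorted cells differ in the age of the mice, the brain region, the preparation, the library kit and the amount of RNA used, which was larger for cultures. Days after tamoxifen are given for the sorted mice alone, and how the Cre was activated in the cultures is not stated here. Rows were matched by their position. Mean levels at the same position correlated with a Spearman coefficient of 0.853 over 26168 rows, and the coefficient was 0.26 to 0.276 after a shift of 1 to 3 positions. Of the rows called in culture, 6671 were also tested in resting sorted cells, and 2 of these were called there, rows 1 and 15292. Row 15292 differed by -1.39 ± 0.28 in culture (SE, adjusted p = 0.000202), from 313 ± 104 CPM in WT to 119 ± 40 CPM in KO (SD, n = 6 each). Row 14617 differed by -1.99 ± 0.16 (adjusted p = 3.49e-09), and row 43535, at under 2 CPM in every culture, by 0.98 ± 0.45 (adjusted p = 0.0622).

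For most rows the resting interval did not contain the signed difference estimated in culture, which was taken without its own error. This was so for 5346 of the 6671 rows (80.1%), and for 2232 of the 2424 rows (92.1%) that were more than 2-fold apart in culture. The median size of the difference in those 2424 rows was 1.88 in culture and 0.27 in sorted cells, in log2 units without sign. An interval can miss the culture value and still allow a difference of that size in the other direction. Row 1 is counted among the 5346 rows, but WT gave 1 count in resting sorted cells and 0 in vehicle cultures. Its 2 fitted differences therefore cannot be compared in size. Over the 12574 rows tested in both, sorted and culture differences had a Spearman coefficient of -0.171, and of -0.102 over 12893 rows without KO male replicate 3, as a description across rows that share libraries. Of the 1903 that were more than 2-fold higher in KO cultures, 579 (30.4%) had sorted intervals within 2-fold, and of the 521 more than 2-fold lower, 376 (72.2%) had. Row 1805, the row after row 1 with the largest excess in KO cultures (5.77 ± 1.33), has been given above. Of the 2 rows with the largest fitted falls there, row 13236 stood in resting sorted cells at 1.78 ± 0.782 CPM in KO and 2.41 ± 0.754 CPM in WT (SD, n = 6 each), and row 3599 gave 1 count in the 12 libraries. In row 13236 the 6 KO cultures held 3 counts in total, so its fall there has no stated fold.

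**Figure D5:**
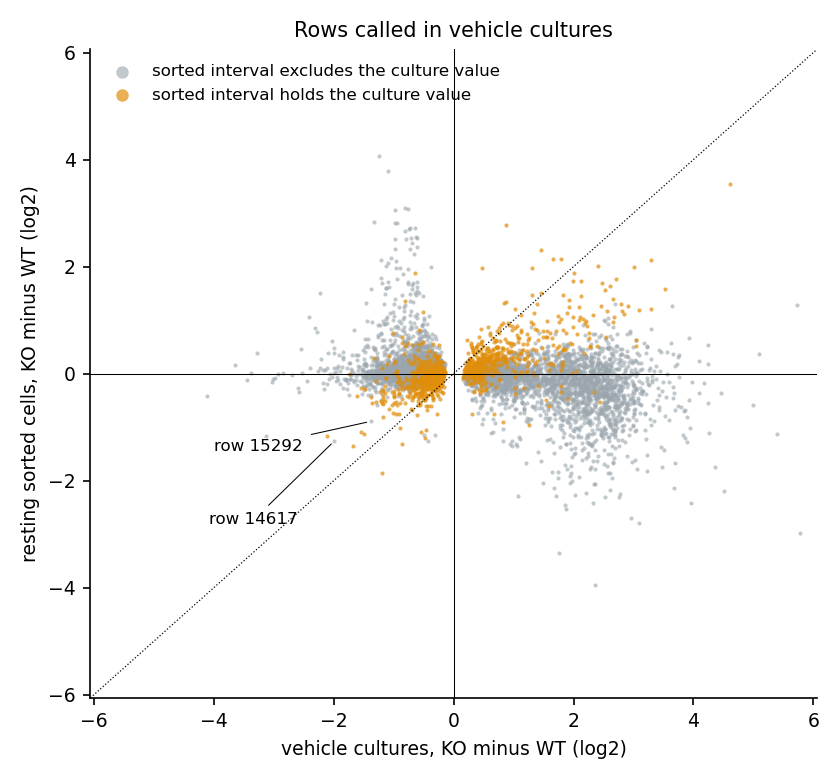
KO minus WT (log2) in resting sorted cells against the same in vehicle cultures for the rows called in culture and tested in sorted cells, without row 1; grey marks rows whose sorted 95% interval excludes the culture difference and orange those whose interval holds it, and the dotted line marks equality. The median size is 0.72 on the horizontal and 0.14 on the vertical axis, and rows 15292 and 14617 lie below 0 on both, while the coefficient over all rows tested in both is -0.171.

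Groups of rows defined in the cultures showed no shift of their median in resting sorted cells beyond 0.06 on the log2 scale. Over all 14077 rows tested the median difference was 0.002. Rows that were higher with LPS in WT cultures had a median of 0.004 over 3027 rows, of which 0 were called. Rows that were higher with thapsigargin and the phorbol ester PDBu, a stimulus that opens store-operated channels, had a median of 0.004 over 3243 rows, of which 1 was called. Rows lower with either stimulus had medians of 0.031 over 3774 and 3790 rows, with row 15292 as the 1 call. Rows higher in KO vehicle cultures had a median of -0.056 over 3102 rows and rows lower there one of 0.028 over 3569 rows, with rows 1 and 15292 as the calls. These shares, from 0% to 0.0322%, lie near the 0.0213% called among all rows.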

How the data were processed

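Tables of raw counts, deposited by the authors, covered 33 sorted and 34 culture libraries. The submitters' processing notes list GRCm38, Salmon 1.10.1, STAR 2.7.10a and Trim Galore 0.6.7 without order, and the counting settings are not given in the sources used here. Samples were grouped by their titles. Of 45707 rows, 28347 had a count in the 12 resting libraries, and filterByExpr (minimum count 10, total 15) left 14077 that held 99.72% of all counts. With TMM factors these were fitted in edgeR 4.0.16 (R 4.3.3) with additive sex and genotype. Intervals are quasi-likelihood Wald intervals at 95%, and the script was tested on simulated counts. Values after LPS and in culture come from fits of all 33 and all 34 libraries with a mean per group. Alternatives used limma 3.58.1 and DESeq2 1.42.0. Tests were two-sided unless stated. Counting intervals were not separated from the spread between mice, and reads carry no molecular identifiers. Library pairs within groups were no repeats of 1 library (chi-square over its degrees of freedom at least 12.8 in 12 pairs).

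Rows named are up to 2 higher and 2 lower called at rest whose mean log2 CPM reached 1 (prior count 2), those called at rest or at 6 h in the fit of 33 libraries, the leading rows of the vehicle cultures, of the sexes and of the interaction with sex. Rows 22869 and 5929 were added after their values were seen. The comparison and lists were chosen with earlier results of these data known.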

Additional observations from a re-analysis of the deposited data

Results flagged for a closer look

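In row 1805, KO female replicate 2 stood at 155 CPM, while the next highest of the 6 KO mice stood at 2.59 CPM. The gap took 0.984 of the range of the KO mice, against a critical share of 0.625 (Dixon's test at the 95% level). It was the 1 such value among 29 groups of values looked at, and chance alone marks about 1 group in 20.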

How the results depend on the processing

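Of the rows called at rest, row 1 was called under every alternative run, whereas rows 15292 and 43535 were not called within either run of library numbers or in 1 sex alone, nor row 15292 in the fit of 33 libraries. Against 3 rows, 6 were called with no filter on low counts, 14 by DESeq2, 5 by voom with quality weights, 1 within the lower run and 1 in males alone. Leaving out 1 mouse gave 3 to 4 rows. For the interaction with sex, 103 rows were called with no filter, 19 by DESeq2, and 0 to 1 without 1 mouse, the 1 arising without KO male replicate 1, KO male replicate 3, WT female replicate 2 or WT female replicate 3. Between the sexes, 22 rows were called with no filter, 33 by DESeq2, and 5 to 8 without 1 mouse.

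The median half-width, 0.462, was 1.59 with no filter, which adds rows of few counts, and 0.717 and 0.70 within the lower and higher run, which hold fewer mice. Intervals within 1.5-fold numbered 3801 and 4006 in those runs and 3148 in males alone. Row 3519 changed sign in males alone (0.28), and row 13236 in the higher run (0.37) and in females alone (0.12); the cause was not tested.

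The deviations of same-numbered KO and WT mice of a sex were weakly correlated at most (0 to 0.11 over 6 pairs, 1 of them over 0.1). The numbers were not taken to pair the mice, though 4 of the 6 pairs were best matched by number. Both mice of each pair also fell in the same run of library numbers, so number and run are not separate. With the replicate number as a block 4 rows were called for genotype, row 14617 being added (-1.29, adjusted p = 0.0219), 0 for the interaction and 6 between the sexes.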
